A study of Saccharomyces cerevisiae with 16 samples.

Results

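The region described here is the 3' end of the small subunit rRNA precursor of Saccharomyces cerevisiae, namely the 3' minor domain of 18S rRNA and the internal transcribed spacer 1 (ITS1) that follows it, up to the A2 cleavage site. It was taken by position, as rows 2338 to 2712 of a 6647-nt mutation profile of the 35S pre-rRNA. Of these rows 163 belong to 18S (nt 1638 to 1800) and 212 to ITS1, and they include 170 of the 3042 A and C bases of the profile (105 A and 65 C). The RNA came from SSU processomes, early assembly particles of the small subunit that form in the nucleolus around the new transcript, purified through a TAP tag on the subunit Utp10. The 16 libraries comprised 4 Has1-H375A libraries with dimethyl sulfate (DMS), 4 Has1-WT libraries with DMS, 4 untreated Has1-H375A libraries and 4 untreated Has1-WT libraries. Has1, an RNA helicase of the DEAD-box family, acts in ribosome assembly, and H375A is a substitution in it. Cells of both genotypes were grown in YPD to mid-log phase and carried Utp10-TAP, so each group holds the rRNA of particles, and of anything bound to them, that came down with this tag; DMS was used at 1% and 30 °C for 5 min. The labels give no age, further allele or clone, and state that there were 4 biological replicates. They do not say whether DMS was applied to cells or to purified particles.

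In DMS-MaPseq, DMS methylates the base-pairing face of A and C where it is accessible, and reverse transcriptase leaves a mutation there, so the mutation rate reads exposure of single bases. Helix 44 is the long helix on the interface side of the subunit and carries the adenines of the decoding centre; helix 45 is a short hairpin next to the 3' end of 18S whose loop carries a pair of dimethyladenosines made by the methyltransferase Dim1. Cleavage at A2 in ITS1 separates the precursors of the small and the large subunit, and cleavage at D by the nuclease Nob1, a late cytoplasmic step, makes the mature 3' end of 18S. The 18S stretch of the profile (rows 701 to 2500) had the same length as the annotated RDN18-1 gene, 1800 nt. The chromosome position of the rDNA copies is not given, because no genome build was named for the files.

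The sequences are shown because the reactive bases can be read directly against them. Each runs 5' to 3' as in the deposited profiles, and capitals mark A and C whose mutation rate was called higher with DMS than without it in both genotypes (edgeR adjusted p under 0.05). Calls needed an effective depth of at least 100 reads in all 16 libraries, so lower case means either not called or not tested.
18S 1638 to 1770, helix 44 with its linkers, 27 of 63 tested bases in capitals: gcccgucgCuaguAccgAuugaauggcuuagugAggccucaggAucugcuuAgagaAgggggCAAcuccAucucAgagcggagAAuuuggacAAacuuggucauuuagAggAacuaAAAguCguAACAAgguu
18S 1771 to 1800, helix 45 and the 3' end before D, 3 of 14 tested bases in capitals: uccguaggugAAccugcggaAggaucauua
ITS1 1 to 106, from D, 8 of 40 tested bases in capitals: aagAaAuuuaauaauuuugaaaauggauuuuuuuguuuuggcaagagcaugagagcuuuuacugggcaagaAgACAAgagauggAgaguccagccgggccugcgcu
ITS1 107 to 212, up to A2, 2 of 4 tested bases in capitals: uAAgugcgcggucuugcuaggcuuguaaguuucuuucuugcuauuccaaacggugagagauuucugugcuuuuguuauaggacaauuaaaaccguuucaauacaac
The capitals of helix 44 are spread along its whole length, those of helix 45 are the adjacent A1781 and A1782 of the loop with A1791 in the tail, and those of ITS1 form a group from nt 72 to 85 with pairs at nt 4 and 6 and nt 108 and 109. In the last 106 nt of ITS1 only 4 of 45 A and C bases had the depth, so the 2 capitals there do not describe that stretch.

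Depth set what could be measured. The median effective depth (reads of sufficient quality) per library ran from 248 to 4382 over the 18S stretch and from 95 to 3193 over ITS1, and H375A replicate 3 was the deepest both with and without DMS. At a depth of 4382 reads the 95% Wilson limits of a 1% rate are 0.749% and 1.35%, and at 100 reads 0.177% and 5.45%, and 0 mutated reads of 100 allow a rate of up to 3%; these limits cover counting error only. All 78 A and C of the 18S stretch had 100 reads or more in every library, against 45 of the 92 in ITS1. With DMS, replicate 1 of both genotypes had the lowest mean rate at A of its group, 1.16% in H375A and 1.17% in WT against 1.46% to 1.74% in the other 6 libraries. At C the same replicates had the highest mean of their group, 0.841% in H375A and 0.754% in WT. Rates compared between genotypes were scaled per library with a single factor for A and C; a factor for each base, added after this was seen, gave 0 called bases of the region as well.

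DMS raised the mutation rate at A and C of the region in both genotypes. Over the 77 A with the depth, the mean rate was 1.16%, 1.46%, 1.54% and 1.61% in the H375A DMS libraries, against 0.536%, 0.502%, 0.476% and 0.436% in the untreated H375A libraries. In WT it was 1.17%, 1.67%, 1.61% and 1.74% with DMS, against 0.528%, 0.528%, 0.465% and 0.571% untreated. The treated and untreated libraries did not overlap in either genotype, and the log2 difference was 1.56 in H375A and 1.55 in WT (exact permutation test, two-sided, p = 0.0286, adjusted over 8 tests 0.0457). Over 46 C the mean was 0.747% ± 0.076 with DMS and 0.415% ± 0.057 untreated in H375A, and 0.660% ± 0.076 and 0.408% ± 0.058 in WT (SD, n = 4), with log2 differences of 0.85 and 0.70 and the same exact permutation p and adjusted p. G, which DMS methylates on a face that does not pair, averaged 0.499% ± 0.025 with DMS and 0.436% ± 0.012 untreated in H375A (log2 difference 0.19, exact permutation p = 0.0286, adjusted 0.0457). In WT, G averaged 0.516% ± 0.032 with DMS and 0.462% ± 0.042 untreated (exact permutation p = 0.114). U did not pass in H375A (0.370% with DMS, 0.379% untreated, exact permutation p = 0.743) or in WT (0.420% with DMS, 0.389% untreated, exact permutation p = 0.514). Taken as pairs of one genotype and number, the DMS library was higher in 4 of 4 pairs at A, C and G of both genotypes, and no exact test of 4 pairs can give a p below 0.125. The adjusted p lay between 0.0571 and 0.0914 at A, C and G of H375A without untreated H375A replicate 1, 2 or 3, and at A and C of WT without WT DMS replicate 1. At G of WT it was 0.0381 without untreated WT replicate 1. The log2 difference at A remained 1.55 to 1.60 in H375A and 1.68 in WT when those libraries were left out. An exact test of so few libraries has a smallest possible p, so the adjusted p also depends on how many of the 8 tests reach it. The size of the DMS effect did not differ detectably between genotypes at any base; at A the log2 difference H375A minus WT was 0.003 (exact permutation p = 1).

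Site by site, DMS raised 49 of 121 tested bases of the region in H375A and 45 of 121 in WT, and lowered none (edgeR's quasi-likelihood test, adjusted p under 0.05). Over all tested A and C of the small subunit part of the precursor, which here runs up to A2, the share raised was 49.5% in H375A and 45.7% in WT (1148 tested). The 3' minor domain, with 37 of 77 in H375A (48.1%) and 32 of 77 in WT (41.6%), lay near that background. ITS1, with 12 of 44 in H375A (27.3%) and 13 of 44 in WT (29.5%), had the lowest share of the 6 domains, and its sites were also the shallowest, with a median lowest depth of 131 reads against 183 to 534 in the other domains; the part of depth in that share was not tested. In both genotypes 40 bases were called, 35 A and 5 C, while 9 were called in H375A alone and 5 in WT alone. Those 14 do not show a difference between genotypes, because the genotype by treatment interaction was called at 0 of 121 bases (edgeR, background 0.0% of 1148; lowest adjusted p in the region 0.405; 3 of 121 with an unadjusted p under 0.05; DESeq2 also called 0).

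**Figure D1:**
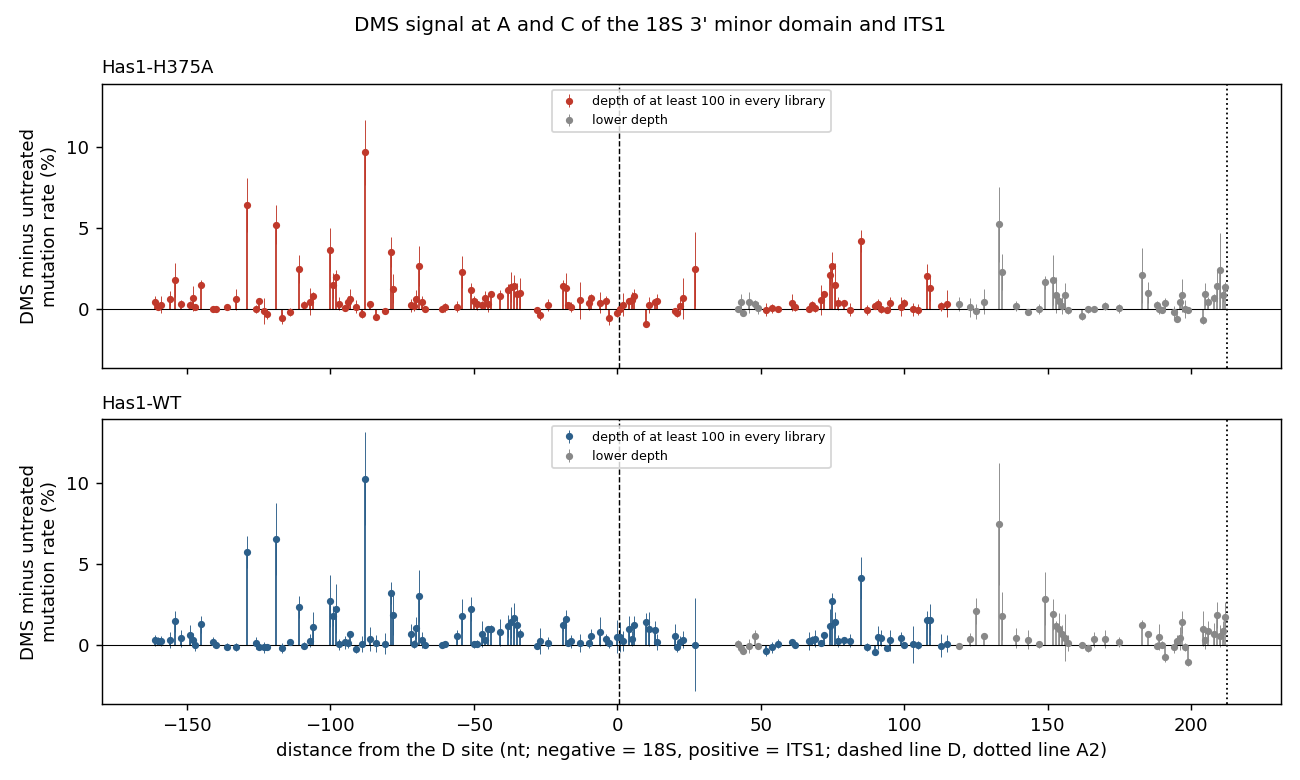
Mean mutation rate with DMS minus the mean untreated rate (%, vertical axis) at each A and C against its distance from D in nt, for H375A above and WT below; whiskers are the SD of 4 DMS libraries and grey points had under 100 reads in at least 1 library. Both panels have their highest point at A1712 in helix 44, 9.67 points in H375A and 10.3 in WT.

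In helix 44 the most reactive base was A1712. Its rate was 8.0%, 11.5%, 12.4% and 9.42% in the H375A DMS libraries, against 7.07%, 12.9%, 12.4% and 12.9% in the WT DMS libraries, with untreated means of 0.654% in H375A and 1.07% in WT. The genotypes overlapped, and replicate 1 was the lowest library of each. The log2 change with DMS was 4.23 (SE 0.33, edgeR adjusted p = 1.81e-25) in H375A and 4.01 (SE 0.35, adjusted p = 1.81e-22) in WT. A1671 came next in H375A, with 6.62%, 7.32%, 7.48% and 10.4% in the H375A DMS libraries and 7.64%, 6.25%, 5.51% and 7.43% in the WT DMS libraries. A1681 had 4.92%, 5.91%, 6.94% and 4.2% with DMS in H375A, against 4.04%, 7.63%, 6.61% and 9.38% with DMS in WT. At both bases the genotypes overlapped, and the untreated means were at most 1.53%.

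The other high bases of helix 44 were less reactive. C1700, the one C among the 10 highest bases of the 18S stretch, had 4.86%, 2.99%, 3.41% and 5.92% in the H375A DMS libraries and 5.16%, 3.47%, 2.79% and 1.27% in the WT DMS libraries, a spread within WT that was wider than the difference between the genotypes. A1721 averaged 3.61% ± 0.93 in H375A and 3.29% ± 0.70 in WT with DMS, over untreated rates of 0.081% and 0.096% (SD, n = 4). A1731 averaged 3.05% ± 1.22 in H375A and 3.39% ± 1.62 in WT, A1689 3.23% ± 0.86 and 3.26% ± 0.69, A1702 2.27% ± 0.41 and 2.75% ± 1.49, and A1746 2.46% ± 0.98 and 2.25% ± 1.04, in the same order of genotypes. All of these were called in both genotypes (edgeR adjusted p of at most 1.37e-05).

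The adenines of the decoding centre, A1755 and A1756, which in the finished ribosome contact the codon and anticodon pair, were reactive at a low level. A1755 had 0%, 0.676%, 1.16% and 0.249% in the H375A DMS libraries, against 1.17%, 1.26%, 1.02% and 1.16% in the WT DMS libraries. The WT libraries were close together and the H375A libraries were not; H375A replicate 3, the deepest, lay within the WT range and the other 3 below it. The difference did not pass (log2 change -0.33, SE 0.36, edgeR adjusted p = 0.858), in a fit that gives deep libraries the most weight. A1756 averaged 1.18% ± 0.18 in H375A and 1.28% ± 0.27 in WT (SD, n = 4; log2 change 0.003, SE 0.32, adjusted p = 0.996). Both bases were called higher with DMS in both genotypes, but that of A1755 in H375A rested on replicate 3 (without it, log2 change 1.15, edgeR adjusted p = 0.233), and that of A1756 in WT was lost without untreated WT replicate 2 (adjusted p = 0.0536). Over the 4 adenines from A1753 to A1756 the mean DMS rate was 0.875% ± 0.096 in H375A and 1.04% ± 0.19 in WT, over untreated rates of 0.346% ± 0.101 and 0.323% ± 0.057. In the stretch that leads from the decoding adenines towards helix 45, all 6 A and C from nt 1759 to 1766 were called in both genotypes. Their mean was 1.41% ± 0.43 in H375A and 1.61% ± 0.44 in WT. The first of them, C1759, was predicted paired in the fold described below.

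In helix 45 the loop bases A1781 and A1782, the sites of the dimethyladenosines, were reactive in both genotypes. A1781 had 1.17%, 2.10%, 1.89% and 1.64% in the H375A DMS libraries, against 2.11%, 1.86%, 1.81% and 1.20% in the WT DMS libraries. A1782 had 0.787%, 2.14%, 2.54% and 3.01% in the H375A DMS libraries, against 1.72%, 2.32%, 3.07% and 2.41% in the WT DMS libraries. The genotypes overlapped at both bases, and each was called higher with DMS in each genotype (edgeR adjusted p of at most 0.000764). Without DMS, A1781 read 0.308% ± 0.239 in H375A and 0.514% ± 0.275 in WT (exact permutation p = 0.314, adjusted over 4 bases 0.629), and A1782 0.852% ± 0.283 and 0.803% ± 0.290 (exact permutation p = 0.743). C1773, which carries an acetyl group placed by Kre33 in mature 18S, read 0.801% ± 0.378 in H375A and 0.868% ± 0.288 in WT without DMS (exact permutation p = 0.83), and DMS did not raise it detectably (0.405% in H375A and 1.06% in WT, edgeR adjusted p = 0.432 and 0.915). C1639, a site of 2'-O-methylation at the start of the region, read 0.247% ± 0.211 in untreated H375A and 0.526% ± 0.163 in untreated WT (exact permutation p = 0.0857, adjusted 0.343). For comparison, the mean untreated rate in H375A and WT was 0.487% and 0.523% over all A of the region with the depth, and 0.415% and 0.408% over all C. A1782 and C1773 lay above these means in both genotypes, and C1639 below in H375A and above in WT. A1781 lay below the mean in H375A and close to it in WT. None of these positions against the means was tested. How many molecules carried each modification was not measured.

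**Figure D2:**
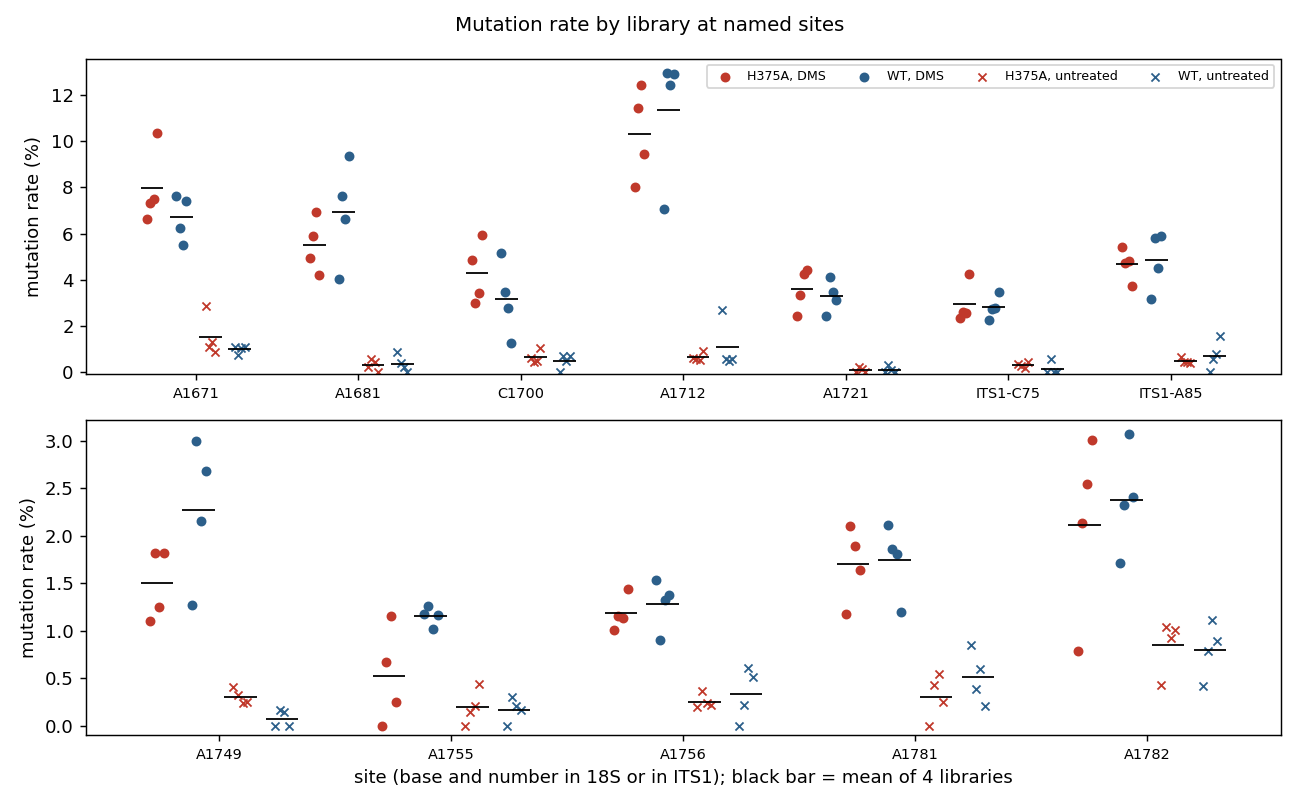
Mutation rate (%) of each library at 12 named bases of 18S and ITS1, with DMS (dots) and untreated (crosses), H375A in red left of WT in blue, and a black bar at each mean of 4. At each base shown the H375A and WT dots overlap; at A1749 the means are 1.5% and 2.27%, and at A1755 0.520% and 1.15%.

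At D itself neither neighbour passed the test for DMS. A1800, the last base of mature 18S, averaged 0.428% ± 0.292 in H375A and 1.24% ± 1.01 in WT with DMS, over untreated rates of 0.667% and 0.749% (edgeR adjusted p for DMS 0.646 and 0.828). The first base of ITS1, A1 of the spacer, averaged 0.810% ± 0.328 in H375A and 1.36% ± 0.93 in WT with DMS, over 0.796% and 0.887% untreated (edgeR adjusted p 0.802 and 0.603).

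By DMS minus untreated rate, the highest base of ITS1 with the depth for a test was A85. It had 5.41%, 4.71%, 4.82% and 3.73% in the H375A DMS libraries, against 3.16%, 5.78%, 4.49% and 5.90% in the WT DMS libraries, with untreated means of 0.481% and 0.718%. The genotypes overlapped, and the log2 change with DMS was 3.37 (SE 0.36, edgeR adjusted p = 2.14e-16) in H375A and 2.78 (SE 0.38, adjusted p = 9.90e-11) in WT. C75 averaged 2.93% ± 0.90 in H375A and 2.82% ± 0.50 in WT, and lay in a run of called bases with A72, A74, A76 and A77. Closer to A2 the reads were fewer, and bases there could be tested only with a depth minimum of 50. A133 had 2.82%, 7.98%, 7.47% and 6.21% in the H375A DMS libraries, against 13.7%, 6.29%, 5.26% and 8.33% in the WT DMS libraries, where the lowest and the highest value came from replicate 1 at the least depth. At that minimum A133, A134, A149 and C152 were called in both genotypes (edgeR adjusted p of at most 0.00835), and so was C212, the last nucleotide before A2, at 1.80% ± 0.35 in H375A and 2.41% ± 0.94 in WT. In all, 28 of 83 ITS1 bases were called in H375A and 23 of 83 in WT with this minimum, where the share over all 1221 tested bases was 49.1% in H375A and 45% in WT.

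Some bases of ITS1 mutated without DMS. A27 had 3.62% ± 1.43 in untreated H375A and 4.71% ± 0.89 in untreated WT (SD, n = 4), against 6.08% in H375A and 4.71% in WT with DMS. A125 had 3.95% ± 1.82 in untreated H375A and 2.82% ± 1.48 in untreated WT, against 3.79% and 4.90% with DMS. Both were named after their values were seen, and their untreated rates were several times the mean for A of the region.

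Reactivity was higher at bases predicted unpaired. Each stretch was folded alone with RNAfold at 37 °C, which uses no value of the profiles, and gave 39 pairs in helix 44 with its linkers, 8 in helix 45 and 74 in ITS1. Of the 30 bases of the 18S stretch called in both genotypes, 29 were predicted unpaired and 1, C1759, paired, among 38 unpaired and 39 paired bases tested. In ITS1 the counts were 8 unpaired and 2 paired, among 19 and 25 tested. In helix 44 the unpaired A and C averaged 1.73% ± 0.31 above the untreated rate in H375A and 1.83% ± 0.29 in WT, against 0.178% ± 0.063 and 0.119% ± 0.087 at paired ones (SD, n = 4). The unpaired bases were higher in 8 of 8 DMS libraries (exact paired permutation p = 0.00781, the smallest that 8 pairs allow, adjusted over 3 stretches 0.0117). In ITS1 only the 45 bases with the depth were used, 41 of them in the 106 nt after D. They gave 1.04% ± 0.33 in H375A and 1.05% ± 0.40 in WT at unpaired bases, against 0.133% ± 0.076 and 0.0915% ± 0.0951 at paired ones, again higher in 8 of 8 libraries (exact paired permutation p = 0.00781, adjusted 0.0117). For helix 45 with the 3' tail the unpaired mean was 0.475% ± 0.293 in H375A and 0.721% ± 0.132 in WT. The paired mean was 0.146% ± 0.147 and 0.0976% ± 0.0902, and unpaired was higher in 7 of 8 libraries (exact paired permutation p = 0.0234, adjusted 0.0234). All libraries read the same bases, and those of a genotype share the subtracted untreated rates. These p-values therefore describe repetition between libraries and not the spread between bases. A and C were pooled, and in helix 44 the unpaired bases were mostly A. In the region 35 of 77 tested A and 5 of 44 tested C were called in both genotypes. The part of the base in the contrast was not tested.

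The contrast between unpaired and paired bases did not pass a test between genotypes. In helix 44 the log2 ratio was 3.34 ± 0.79 in H375A and 4.37 ± 1.56 in WT, a difference of -1.03 (exact permutation p = 0.314, adjusted 0.629, n = 4 each), which became -0.22 without subtraction of the untreated rate. In helix 45 and ITS1 subtraction left the paired mean below 0 in 1 or more libraries, so the ratio without subtraction was used, with differences of -0.38 (exact permutation p = 0.457) and -0.18 (exact permutation p = 0.629). In percentage points the difference H375A minus WT was -0.160 in helix 44, -0.294 in helix 45 and -0.056 in ITS1 (exact permutation p of 0.286 to 0.8).

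**Figure D3:**
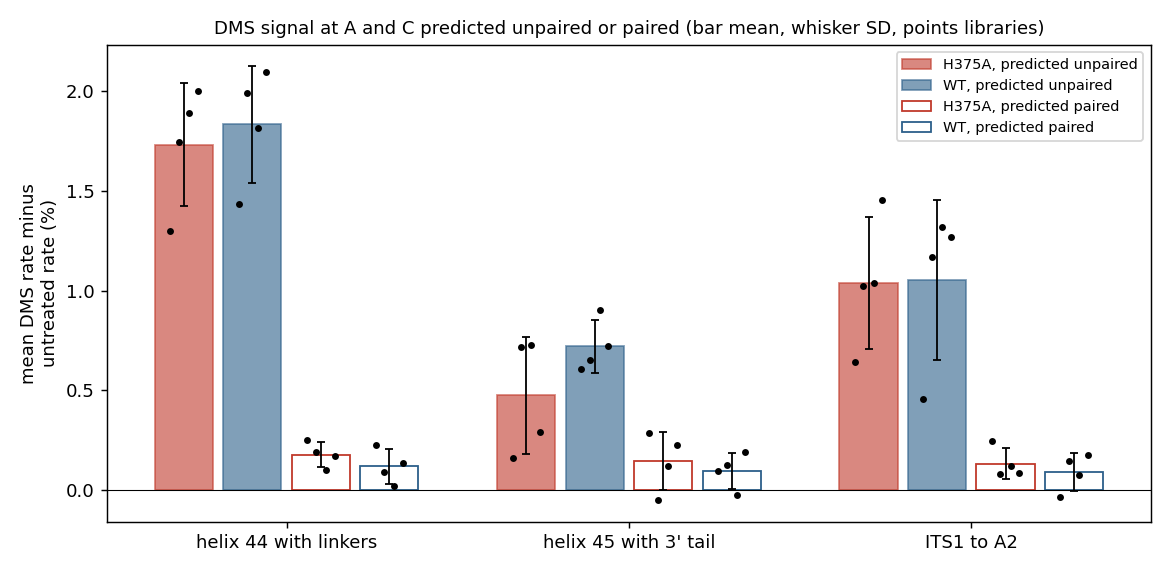
Mean DMS rate minus the untreated rate (%) over A and C predicted unpaired (filled bars) or paired (open bars) in each stretch, H375A in red left of WT in blue; bars are means of 4 DMS libraries, whiskers the SD and points the libraries. In helix 44 and ITS1 each unpaired bar stands above the paired bars, 1.73% and 1.83% against 0.178% and 0.119% in helix 44. The ITS1 bars cover 45 bases, 41 of them in the 106 nt after D.

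Within the same libraries, the mean DMS signal over A was higher in the 3' minor domain than in the rest of 18S. It was lower in ITS1 than in the 3' minor domain. Above the untreated rate, A averaged 1.19% ± 0.23 in H375A and 1.30% ± 0.27 in WT over the 46 A of the 3' minor domain, against 0.780% ± 0.163 and 0.784% ± 0.165 over 415 A of the rest of 18S, higher in 8 of 8 DMS libraries (exact paired permutation p = 0.00781, adjusted over 9 tests 0.0117). It was also higher than A of the 3' major domain, which forms the head of the subunit and averaged 0.969% ± 0.214 in H375A and 0.938% ± 0.205 in WT (8 of 8 libraries, same p). The 31 A of ITS1 averaged 0.609% ± 0.157 in H375A and 0.618% ± 0.281 in WT, below the 3' minor domain in 8 of 8 libraries (same p). C did not follow, with 0.342% ± 0.062 in H375A and 0.261% ± 0.130 in WT in the 3' minor domain against 0.400% ± 0.028 and 0.425% ± 0.055 in the rest of 18S (exact paired permutation p = 0.0625, adjusted 0.0791). The 3' minor mean over A includes A1712, A1671 and A1681, at 9.96, 6.07 and 5.87 points in the mean of both genotypes. They hold a large part of that mean. The mean without them was not tested, so a higher signal is not shown for the other A of the domain. By median log2 DMS change over tested A and C, the 3' minor domain was instead the lowest of the 18S domains. In H375A this median was 0.956, against 0.976 to 1.26, and in WT 0.793, against 1.12 to 1.27. The share of A, the depth and the share of unpaired bases differ between these stretches, and their part was not tested. These comparisons of means were chosen after the rates had been seen. Their p-values describe repetition between libraries that read the same bases, and not the large spread between bases within a stretch.

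Between the genotypes no base of the region was called. The comparison asks whether the rRNA of particles from Has1-H375A cells differed in exposure from that of particles from WT cells, and used the 74 bases (48 in 18S, 26 in ITS1) with the depth and with a DMS rate at least 0.2 percentage points above the untreated rate. edgeR called 0 of 74, where the share over all tested bases of the small subunit part was 3.59% (26 of 725); the lowest adjusted p in the region was 0.14. An unadjusted p under 0.05 was found at 3 of 74 bases, against 12.0% of all tested bases, and 0 of 74 had H375A libraries that did not overlap the WT libraries, against 5.79% of all. DESeq2 also called 0 and gave no adjusted p at 62 of the 74. The median log2 change was 0.02 over the region, as over all tested bases (0.02), and 39 of the 74 changes were positive. At 50 reads or more in every library 99 bases of the region could be tested, and 0 were called, against 3.49% of 774 over all.

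The bases with the lowest p were lower in H375A. A1749, in helix 44 close to the decoding centre, had 1.10%, 1.82%, 1.25% and 1.82% in the H375A DMS libraries, against 1.27%, 2.99%, 2.15% and 2.68% in the WT DMS libraries. Of the WT libraries only replicate 1 reached down into the H375A range. The log2 change after scaling was -0.77 (SE 0.28, edgeR adjusted p = 0.14, unadjusted 0.00794), which did not pass. A1728 in helix 44 averaged 0.553% ± 0.418 in H375A and 1.29% ± 0.60 in WT (log2 change -0.996, SE 0.42, edgeR adjusted p = 0.293), with DMS rates that were not called above the untreated 0.336% and 0.621%. A1 of ITS1, given above, had a log2 change of -1.18 (SE 0.54, edgeR adjusted p = 0.366). The remaining bases named by rank were A1671 (log2 change 0.29), C1706 (1.14), ITS1-A10 (-0.78), ITS1-A71 (1.09) and ITS1-A13 (-0.47), with edgeR adjusted p of 0.517 to 0.718. At ITS1-A10 the untreated rate stood out, at 3.57%, 1.15%, 0.551% and 1.74% in H375A against 0%, 0.269%, 0.153% and 0.437% in WT, at depths of 121 to 2902 reads. It had the lowest adjusted p of the interaction in the region, 0.405, and did not pass.

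**Figure D4:**
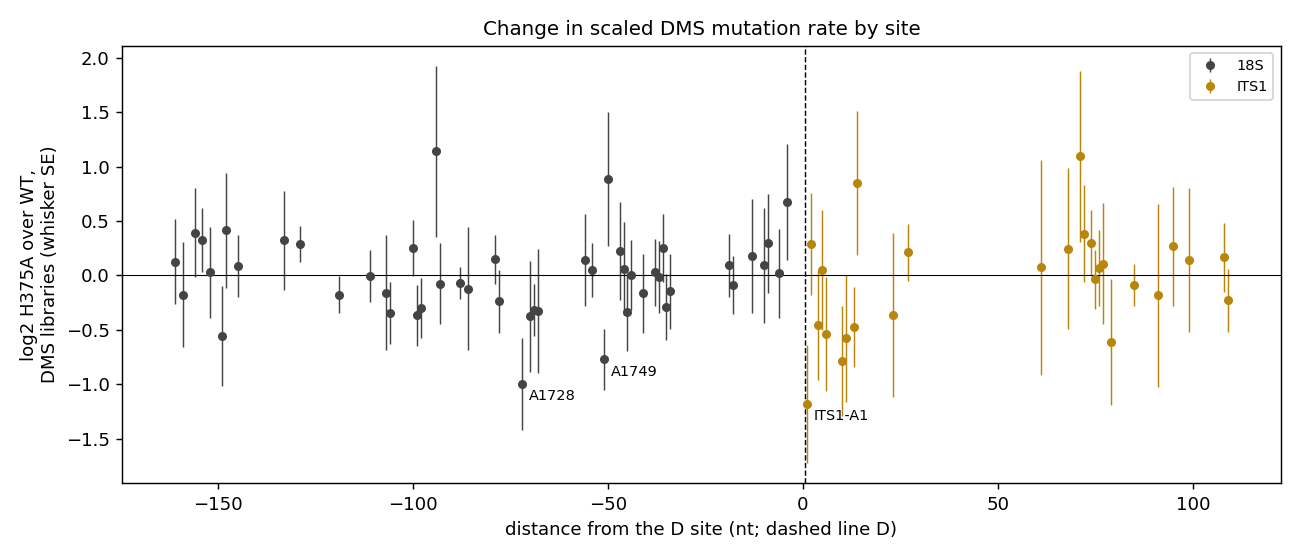
Fitted log2 change of the scaled DMS rate, H375A over WT, with its SE (vertical axis) at each of the 74 tested bases against the distance from D in nt. The changes lie on both sides of 0 and none passed; A1749, A1728 and ITS1-A1 are labelled, at -0.77, -0.996 and -1.18.

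Averages over the stretches gave the same picture with narrower limits. The scaled DMS rate over the 48 bases of the 3' minor domain was 1.76% ± 0.06 in H375A and 1.81% ± 0.10 in WT (log2 change -0.034, SE 0.043, 95% interval -0.13 to 0.06, limma adjusted p = 0.642 over 6 domains). Over the 26 bases of ITS1 it was 1.42% ± 0.13 in H375A and 1.34% ± 0.16 in WT (log2 change 0.089, SE 0.091, interval -0.12 to 0.29, limma adjusted p = 0.642). The sign of these small changes depended on the summary and on the scaling: with the median over bases they were 0.034 and -0.088, and with scaling from 25S bases, which shifts all changes by -0.13, they were -0.16 and -0.038. Within the 18S stretch the log2 change was -0.05 in helix 44 (41 bases), 0.16 in helix 45 (4 bases) and 0.09 in the last 10 nt (3 bases), and in ITS1 0.08 in the 106 nt after D (24 bases) and 0.18 in the 106 nt before A2 (2 bases), with exact permutation p of 0.257 to 0.83. Across the 78 bases of the 18S stretch the DMS minus untreated rates of H375A and WT had a Pearson correlation of 0.968 (Spearman 0.802), and across 45 of ITS1 of 0.751 (0.501); bases share their libraries and depth, so this is a description.

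Read depth fell along a slope that began before D, with a step at D itself and none at A2, and reads covered both sites. At 30 nt before D, the last nucleotide of 18S and 20 nt after D, depth over mean 18S depth was 1.02, 0.663 and 0.458 in H375A DMS libraries. It was 0.852, 0.499 and 0.297 in WT DMS, 1.05, 0.645 and 0.366 in untreated H375A, and 0.912, 0.558 and 0.313 in untreated WT libraries. From the last nucleotide of 18S to the first of ITS1, depth fell to 0.955 ± 0.018 in H375A DMS libraries and 0.914 ± 0.051 in WT DMS libraries. In untreated libraries it fell to 0.952 ± 0.017 in H375A and 0.924 ± 0.027 in WT (SD, n = 4). A fall of this size between neighbours was uncommon: of 2662 neighbouring pairs up to A2, 8 fell as far or further in the mean of all 16 libraries, D included. Over 50 nt on each side, which takes in the slope, the fall was larger, and 11 of 2663 positions had as low a ratio. Without DMS, depth after D was 0.428, 0.380, 0.587 and 0.363 of that before D in H375A, against 0.458, 0.343, 0.531 and 0.397 in WT, a log2 difference of 0.02 between overlapping groups (exact permutation p = 0.943). With DMS it was 0.518, 0.458, 0.606 and 0.537 in H375A, against 0.518, 0.444, 0.415 and 0.431 in WT (log2 difference 0.23, exact permutation p = 0.0857, adjusted over 6 tests 0.514), higher in H375A in 3 of 4 pairs of the same number. Whether rRNA already cut at D or the ends of reads gave the fall was not tested.

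At A2 there was no step between neighbours, with ratios of 0.994 ± 0.011 in H375A DMS, 1.01 ± 0.02 in WT DMS, 1.01 ± 0.02 in untreated H375A and 1.01 ± 0.03 in untreated WT libraries. Over 50 nt on each side, depth after A2 was 0.900 ± 0.140 of that before in untreated H375A and 0.858 ± 0.219 in untreated WT (exact permutation p = 0.714), and 0.943 ± 0.174 and 0.911 ± 0.155 with DMS (exact permutation p = 0.857). Between D and A2 the profile had a shared shape, with a low near nt 23 to 33 of ITS1, a peak at nt 86 in the mean of each of the 4 groups and a second low beyond it. That low was at nt 144 or 145 in H375A DMS, WT DMS and untreated H375A libraries. Untreated WT libraries also had a low there (0.279 at nt 150) but were lowest at nt 205. Depth was higher again at nt 175 and fell towards A2. At nt 175 and 205 it was 0.443 and 0.375 in H375A DMS, 0.330 and 0.276 in WT DMS, 0.423 and 0.364 in untreated H375A, and 0.343 and 0.266 in untreated WT libraries. The peak at nt 86 stood at 0.743 of the mean 18S depth in H375A DMS, 0.645 in WT DMS, 0.736 in untreated H375A and 0.588 in untreated WT libraries.

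ITS1 from D to A2 had 0.303, 0.529, 0.596 and 0.450 of the mean 18S depth in untreated H375A, against 0.249, 0.391, 0.493 and 0.407 in untreated WT. H375A was higher in 4 of 4 pairs of the same number, but the groups overlapped (log2 difference 0.29, exact permutation p = 0.371, adjusted 0.943; as pairs p = 0.125, the smallest that 4 pairs allow). With DMS the ratio was 0.314, 0.534, 0.640 and 0.515 in H375A, against 0.290, 0.423, 0.427 and 0.429 in WT, again higher in 4 of 4 pairs with overlapping groups (log2 difference 0.32, exact permutation p = 0.286, adjusted over 4 added tests 0.343; as pairs p = 0.125). In the 50 nt after A2 the depth over 18S was 0.382 ± 0.059 in H375A DMS and 0.274 ± 0.023 in WT DMS libraries, which did not overlap (exact permutation p = 0.0286, adjusted 0.114; as pairs p = 0.125), and 0.345 ± 0.092 in untreated H375A and 0.248 ± 0.056 in untreated WT libraries (exact permutation p = 0.143, adjusted 0.286). These 4 tests were added after the depths had been seen, and none passed after adjustment. The 18S 3' minor domain had 0.889 ± 0.094 of the 18S depth in untreated H375A and 0.856 ± 0.072 in untreated WT (log2 difference 0.05, exact permutation p = 0.629). Without DMS, replicates moved together across genotypes: replicate 1 was the lowest and replicate 3 the highest for ITS1 in both untreated groups. With DMS, depth over the region was correlated between genotypes at 0.837 and 0.629 in replicates 1 and 3. It was at 0.109 and 0.151 in replicates 2 and 4, so the numbers pair the DMS libraries less well.

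**Figure D5:**
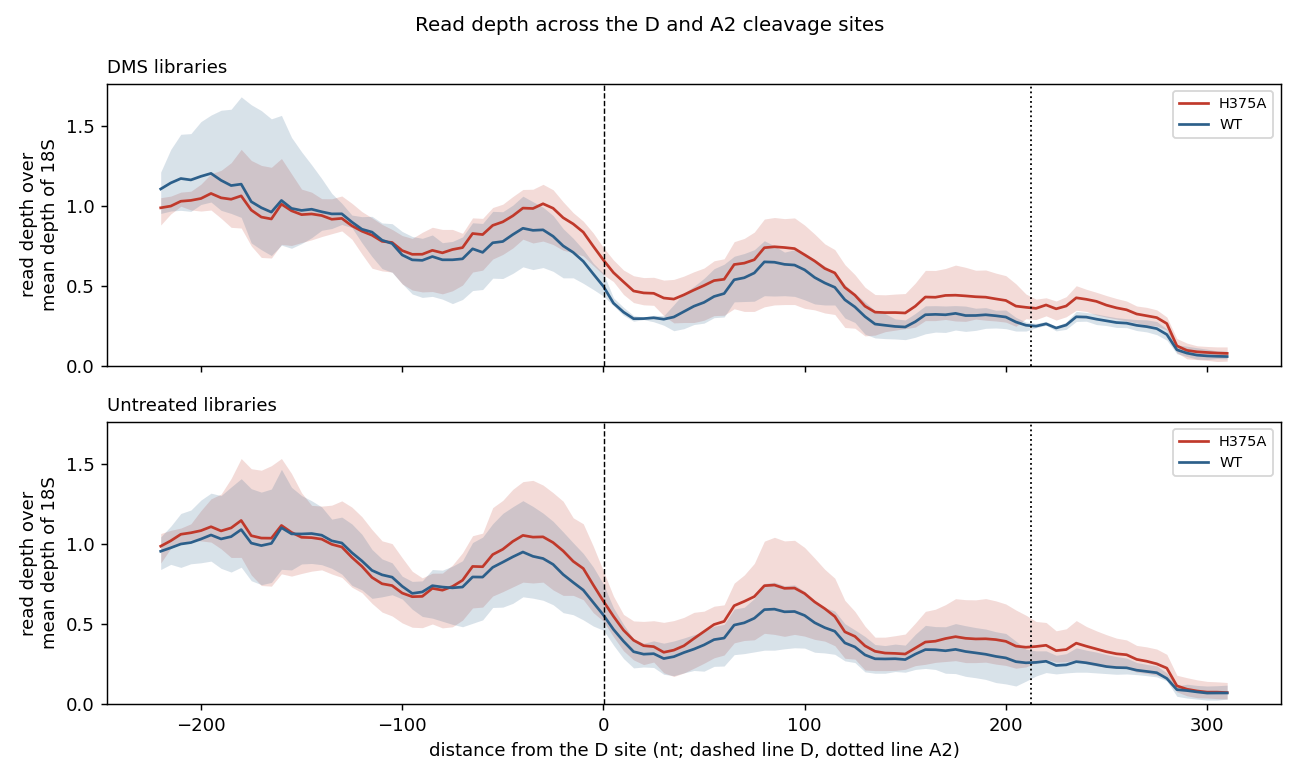
Read depth divided by the mean depth of 18S against the distance from D in nt, with DMS above and untreated below; lines are means of 4 libraries, H375A in red and WT in blue, and bands run from the lowest to the highest library. All groups fall across D, peak near nt 86 of ITS1 and show no step at A2.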

How the data were processed

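Per the file headers, the authors deposited for each nucleotide of the pre-rRNA counts of mutated reads, of covering reads and of effective depth, and a mutation rate as a fraction; the deposited fraction equalled mutated reads over effective depth, with no subtraction of untreated rates. The aligner and mutation caller are not given in the sources used here; their filters act on all rates, and reads were not counted as molecules. Rates were recomputed in percent. Members, lists and tests were chosen with earlier results of these data known.

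Bases with an effective depth of 100 or more in all 16 libraries were used. Mutated reads were tested with edgeR 4.0.16 (R 4.3.3; quasi-likelihood, offset of log depth; 20 or more mutated reads in all for DMS against untreated) over the whole small subunit part, adjusted by Benjamini-Hochberg at 0.05. For H375A against WT the offset included a median-ratio scaling factor from 594 bases, and untreated rates had to be under 5%. Standard errors (SE) came from the test statistic. Stretch means were tested with limma 3.58.1, single values by exact two-sided permutation (no p below 0.0286 for 4 against 4). Structures came from ViennaRNA 2.7.2. DESeq2 1.42.0 was an alternative. Scripts were tested on simulated data.

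Named bases were the 10 of 18S and 6 of ITS1 with the highest DMS minus untreated rate, known modified, decoding and boundary bases, and the 4 lowest p of each stretch between genotypes. The submitters' text pairs each DMS library with its untreated control. Without DMS, depth over the region deviated alike in same-numbered libraries of the genotypes (correlations 0.772 to 0.892). With DMS it did so in replicates 1 and 3 (0.837 and 0.629) and hardly in replicates 2 and 4 (0.109 and 0.151). Scaled DMS rates did not deviate alike in same-numbered libraries (-0.053 to 0.236), so for these rates genotypes were compared without pairing.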

Additional observations from a re-analysis of the deposited data

Results flagged for a closer look

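Of 162 sets of 4 libraries, 14 had a library far from the other 3 by Dixon's test, where chance gives about 1 in 20, or 8.1. Many rest on few reads. A1712 read 7.07% in WT DMS replicate 1 (13 of 184 reads) against 12.4% to 12.9% in the others, and 2.68% in untreated WT replicate 1 (6 of 224) against 0.463% to 0.584%. A1671 read 0.724% in untreated WT replicate 2 against 1.06% to 1.11%. In ITS1, A133 read 0% in untreated WT replicate 4 (0 of 141), A134 0% in WT DMS replicate 1 (0 of 74, which allows up to 4.05%), and A85 0.662% in untreated H375A replicate 1 (2 reads). C75 read 4.26% in H375A DMS replicate 4 (11 of 258) and 0.570% in untreated WT replicate 2, against 0% in the other untreated WT libraries. A71 read 2.21% in H375A DMS replicate 1 (3 of 136) and 0.293% in untreated WT replicate 3 (3 reads). C1773 read 2.25% in WT DMS replicate 1 (6 of 267), and A1800 1.92% in untreated H375A replicate 4 (5 of 261). The depth of ITS1 over 18S was 0.290 in WT DMS replicate 1, against 0.423 to 0.429 in the other WT DMS libraries. The log2 ratio of unpaired to paired bases in helix 45 was 1.749 in WT DMS replicate 3, against 0.983 to 1.07.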

How the results depend on the processing

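Over all settings run, the genotype comparison and the interaction kept 0 called bases, also with any library left out. Bases called with DMS fell to 25 in H375A and 21 in WT with a depth minimum of 200, which left 51 to test, and ran from 37 to 50 and from 32 to 45 with 1 library left out; the replicate block gave 48 and 42. With the median over bases, the log2 DMS difference was 1.29 at A, 0.72 at C and 0.17 at G in H375A. In WT it was 1.67 at A and 0.37 at C, and none of these passed after adjustment. The adjusted p was 0.0762 at A of both genotypes and at C of H375A, 0.503 at G of H375A and 0.171 at C of WT. At A of both genotypes and C of H375A the exact permutation p was still 0.0286, the smallest that 4 against 4 allows. Fewer tests reached it than with the mean, so the adjusted p was higher. With the replicate block (pairs), the same differences were 1.56, 0.85 and 0.19 in H375A and 1.55 and 0.70 in WT, where 4 pairs cannot pass. With 1 library left out they ran from 1.5 to 1.66 at A, 0.79 to 0.94 at C and 0.16 to 0.22 at G in H375A, and from 1.49 to 1.68 at A, 0.63 to 0.79 at C and 0.11 to 0.21 at G in WT. Without 1 library, 11 of these values no longer passed (adjusted p 0.0571 to 0.0914) and 1, G in WT, passed (0.0381). The remaining 309 alternative values of the main results kept their side of the threshold. As pairs of the same number, the helix 44 ratio of unpaired to paired bases was lower in H375A in 4 of 4 (replicate block, log2 difference -1.03, exact permutation p = 0.125, the smallest that 4 pairs allow). Among named bases, C1639 lost its DMS call in H375A with DESeq2 (adjusted p = 0.0516) and without replicate 3 (0.226); A1755 and A1756 are given above. Depth limits ITS1 beyond nt 115, where no base had 100 reads in every library.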
